A study of Sus scrofa with 30 samples.

Results

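The families of miR-26 and of miR-103 with miR-107 were followed in the porcine endometrium through 14 of the 873 sequences that the study annotated as miRNAs. Members were the sequences whose miRNA name was mir-26a, mir-26b, mir-103 or mir-107, in any species or copy. They comprised 5 forms of mir-26a, 6 forms of mir-103, 2 forms of mir-107 and 1 form that fits the precursors of both mir-103 and mir-107. No sequence was named mir-26b.

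The 30 libraries each held the endometrial small RNA of 1 gilt, a Hampshire x Duroc cross of 7 to 8 months from a single herd. Animals were pregnant (P) or in the estrous cycle (C) and were sampled on day (D) 12, 16 or 20, so that PD20 had 6 animals, CD12 had 4 and each other group had 5. Conceptuses were flushed out up to D16 and dissected away on D20, and the labels name no treatment other than insemination. By the study's methods, the endometrium of PD20 came from implantation sites. In comparisons with PD20 this site cannot be told apart from day or status. A library held between 2029729 and 6402731 reads, of which between 75.3% and 87.2% were counted on the 873 sequences. Normalized reads are given as CPM, the reads on these sequences per 1e+06 of the library size scaled by TMM, the trimmed mean of M-values. They are counts of whole small RNAs and were not divided by length. In whole tissue, fewer cells of a type and less miRNA per cell cannot be told apart.

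A miRNA binds target mRNAs mainly through its seed, bases 2 to 8 counted from the 5′ end, and the families studied here have different seeds. miR-26a is known as an inhibitor of cell growth that targets EZH2, the histone methyltransferase of the Polycomb complex. miR-103 and miR-107 are known for targeting DICER1, the enzyme that makes mature miRNAs, and caveolin 1 in insulin signalling. All of them lie within protein-coding genes: in the annotation of Sscrofa11.1, MIR26A is within CTDSP2, a phosphatase gene, while MIR107, MIR103-1 and MIR103-2 are within PANK1, PANK3 and PANK2, which encode pantothenate kinases of coenzyme A synthesis.

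The forms on which the results turn have the following sequences, with the seed in capitals, and are shown because they differ at the 3′ end, at the 5′ end or in 1 base.
miR-26a, 22 nt, canonical: tTCAAGTAatccaggataggct
miR-26a, 21 nt: tTCAAGTAatccaggataggc
miR-26a, 20 nt: tTCAAGTAatccaggatagg
miR-26a, 23 nt: tTCAAGTAatccaggataggctg
miR-103, 23 nt, canonical: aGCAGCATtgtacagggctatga
miR-103, 22 nt: aGCAGCATtgtacagggctatg
miR-103, 21 nt, 2 bases shorter at the 5′ end: cAGCATTGtacagggctatga
miR-107, 23 nt, canonical: aGCAGCATtgtacagggctatca
miR-107, 22 nt: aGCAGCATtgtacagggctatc
miR-103 or miR-107, 21 nt: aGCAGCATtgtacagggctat

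Canonical miR-103 and miR-107 differ in a single base, G22C, counted from the 5′ end of miR-103. The seed TCAAGTA was shared by 8 of the 873 sequences, the 5 forms of miR-26a and 3 sequences with an Ensembl gene identifier. The seed GCAGCAT was found in 8 members and in no other of the 873 sequences. The form of miR-103 that lacks AG at its 5′ end has the seed AGCATTG, which no other of the 873 sequences carried.

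Canonical miR-103 and canonical miR-26a were abundant and close to each other in level. Canonical miR-103 had a mean of 3471 CPM over the 30 libraries (rank 33 of 873), and canonical miR-26a a mean of 3382 CPM (rank 34). Canonical miR-107 had 13.3 CPM (rank 491). The 14 members together held 0.806% ± 0.259 (SD, n = 30) of the reads on the table, between 0.388% and 1.38% in a library. The plot of levels shows that 2 canonical sequences carried most of the reads and that the ranges over animals were wide beside the distances between group means. Each member had reads in all 30 libraries, with a lowest count of 1 read for the 19 nt form of miR-26a.

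**Figure D1:**
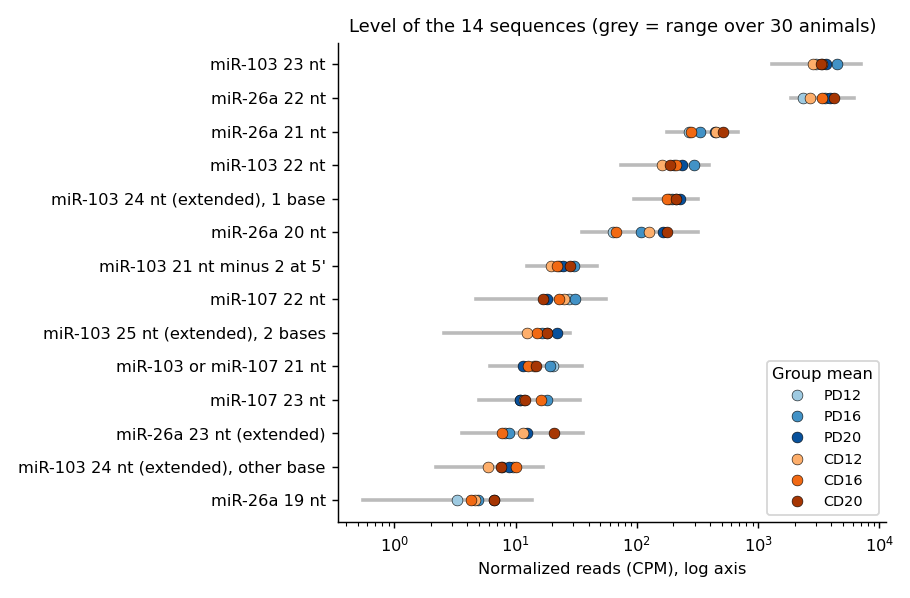
Normalized reads (CPM, log axis) of the 14 sequences, ordered by their mean over 30 libraries. Points are group means and grey bars run from the lowest to the highest animal; canonical miR-103 and miR-26a lie at 1296 CPM or above in every library, and the 2 forms of miR-107 between 4.72 and 55.5 CPM.

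Over the 30 libraries, the coefficient of variation of canonical miR-103 was 32.9% and that of canonical miR-26a was 35.3%. Among the 548 sequences whose mean reached 10 CPM the median was 53.1%, and 7.48% of them varied less than miR-103 and 10.2% less than miR-26a. For canonical miR-107 it was 47.8%.

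The mean of canonical miR-26a was lowest in PD12 (2355 ± 301.8 CPM), followed by CD12 (2699 ± 301.5), CD16 (3367 ± 1307), PD16 (3541 ± 925), PD20 (3905 ± 1642) and CD20 (4183 ± 1101). On D12 the pregnant animals had 1882, 2298, 2443, 2449 and 2703 CPM, and the cyclic animals 2298, 2664, 2827 and 3006 CPM. In PD20 the lowest, median and highest animals had 2235, 3250 and 6146 CPM, and in CD20 the 5 animals had 2586, 3577, 4559, 4851 and 5340 CPM. Thus neighbours in this order overlapped, and the spread on D20 was wider than on D12. Means of canonical miR-103 ran from 2843 ± 582 CPM in CD12 over 3016 ± 758 in PD12, 3303 ± 1220.4 in CD20, 3386 ± 735 in CD16 and 3646 ± 1111 in PD20 to 4472 ± 1749.97 in PD16. In PD16, where the mean was highest, the animals had 2872, 2917, 4409, 5060 and 7103 CPM, which reaches into the range of every other group. Canonical miR-107 was lowest in PD20 (10.8 ± 3.73 CPM), nearly equal in PD12 (10.9 ± 5.31), CD12 (11.8 ± 3.52) and CD20 (11.9 ± 4.09), and higher in mean in CD16 (16.1 ± 10.9) and PD16 (18.2 ± 6.39). No neighbours in this order were separated beyond their spread.

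**Figure D2:**
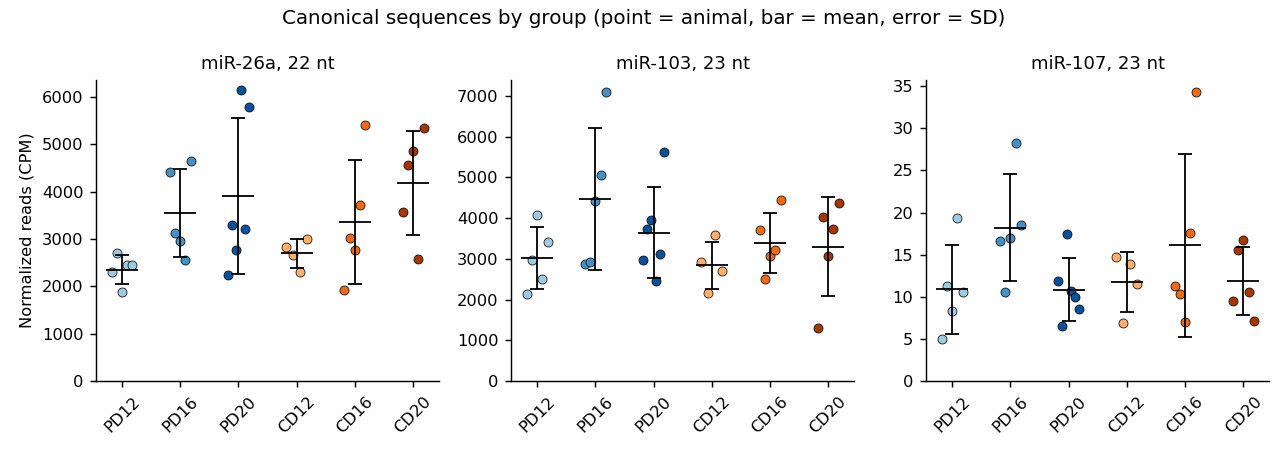
Normalized reads (CPM) of the canonical sequences of miR-26a, miR-103 and miR-107 by group. Points are animals, bars are means and error bars are SD; the groups overlap, and PD20 of miR-26a holds 2 animals at 5782 and 6146 CPM.

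The comparisons of the design asked whether the families differ between days within pregnancy, between days within the cycle, and between pregnant and cyclic animals on the same day. A sequence was called when its Benjamini-Hochberg adjusted p from edgeR's quasi-likelihood test was under 0.05 and its log2 fold change (log2FC) was over 1 in size. None of the 14 members was called in any of the 9 comparisons. The share of all tested sequences that was called was low as well: 0.229% for PD16 vs PD12, 0.802% for PD20 vs PD12, 0.573% for PD20 vs PD16, 0.115% for CD16 vs CD12, 0.458% for CD20 vs CD12, 0.458% for CD20 vs CD16, 0% for PD12 vs CD12, 0% for PD16 vs CD16 and 1.49% for PD20 vs CD20. At an unadjusted p under 0.05 there were 2 or 3 members in each comparison of days (14.3% or 21.4% of 14), where between 14.2% and 23.9% of all sequences were under it. In PD12 vs CD12 there were 2, against 6.08% of all sequences, while PD16 vs CD16 and PD20 vs CD20 had 0, against 10.9% and 28.5%. DESeq2 and the likelihood ratio test of edgeR called members in CD20 vs CD16 alone, 2 and 1 of 14 (14.3% and 7.14%), where they called 8.59% and 6.41% of all sequences. Comparisons against the same group share its animals.

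**Figure D3:**
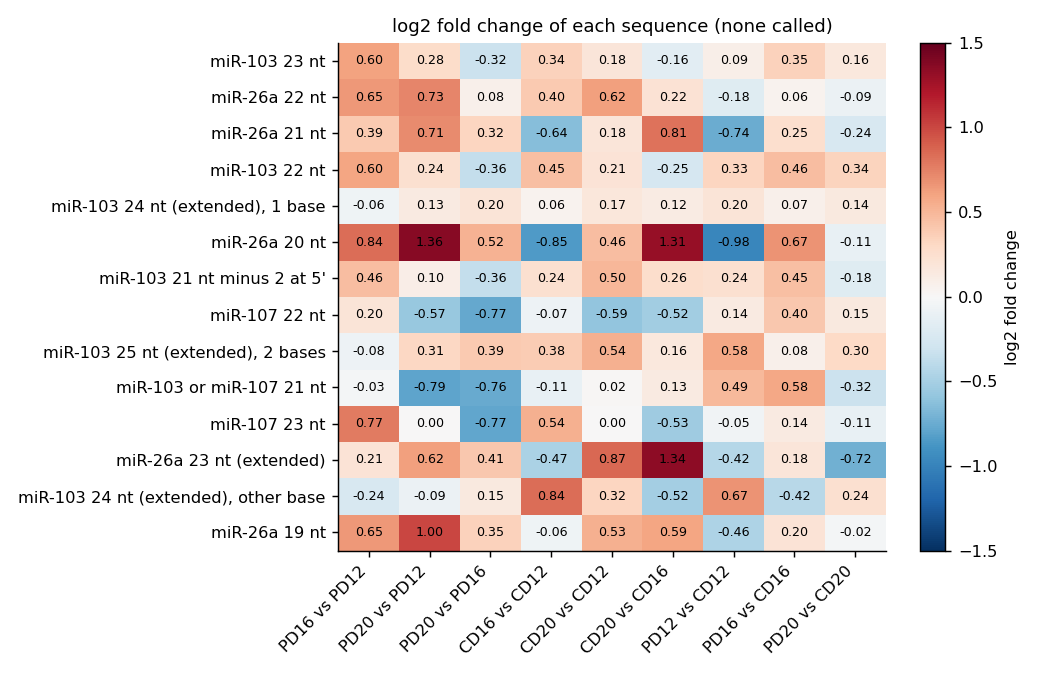
log2FC of the 14 sequences (rows, ordered by level) in the 9 comparisons (columns), red for higher and blue for lower in the group named first. No cell passed the test; the largest values belong to the 20 nt and 23 nt forms of miR-26a.

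Within pregnancy the largest differences were those of miR-26a. The 20 nt form, which lacks the last 2 bases, had 45.7, 58.7, 58.8, 77.6 and 77.9 CPM in PD12, and 35.0, 73.3, 122, 144.9 and 165 CPM in PD16. In PD20 its lowest, median and highest animals had 64.2, 174 and 255 CPM. So 5 of the 6 animals of PD20 lay above all animals of PD12, and the groups overlapped through the lowest. Its mean was 63.7 ± 13.9 CPM in PD12 and 164 ± 70.3 in PD20, with a log2FC of 1.36 (SE 0.40) and an adjusted p of 0.143 from the joint edgeR test of D16 and D20. The log2FC of PD16 vs PD12 was 0.84 (SE 0.41) under the same joint test. Tested alone, PD20 vs PD12 had an adjusted p of 0.0693. Canonical miR-26a had a log2FC of 0.65 (SE 0.31) for PD16 vs PD12 and 0.73 (SE 0.30) for PD20 vs PD12, with a joint adjusted p of 0.288. Of the 14 members 10 had a positive log2FC in PD16 vs PD12 (median 0.43) and 11 in PD20 vs PD12 (median 0.26), where the median of all 873 sequences was 0.05 and -0.01.

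Members of the miR-103 and miR-107 family had the smallest p in PD20 vs PD16. The 21 nt form that both precursors spell had 14.03, 14.7, 20.9, 22.8 and 24.3 CPM in PD16, and in PD20 its lowest, median and highest values were 8.31, 11.1 and 17.7 CPM. Only the highest animal of PD20 reached into PD16. Its log2FC was -0.76 (SE 0.31, edgeR adjusted p = 0.264), and against PD12 it was -0.79 (SE 0.31, joint adjusted p = 0.243). Both forms of miR-107 had a log2FC of -0.77 (SE 0.37 each, adjusted p = 0.347). Canonical miR-107 had 10.6, 16.7, 17.03, 18.6 and 28.3 CPM in PD16 and between 6.51 and 17.4 CPM in PD20, with a median of 10.3. The 22 nt form of miR-107 overlapped widely, with 17.8 to 55.5 CPM in PD16 and 8.72 to 32.01 in PD20. Canonical miR-103 had a log2FC of -0.32 in the same comparison.

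Within the cycle, the 20, 21 and 23 nt forms of miR-26a had their lowest means on D16 and their highest on D20. The 20 nt form had 71.7, 121, 131 and 184 CPM in CD12, 40.3, 64.9, 69.1, 73.2 and 86.3 CPM in CD16, and 86.1, 117, 139, 221 and 319 CPM in CD20. All animals of CD16 but the highest lay below the lowest animal of CD20. The log2FC of CD20 vs CD16 was 1.31 (SE 0.42, edgeR adjusted p = 0.0969), that of CD16 vs CD12 was -0.85 (SE 0.43) and that of CD20 vs CD12 was 0.46 (SE 0.44), with a joint adjusted p of 0.143 for the last 2. The 23 nt form, extended by G, was scarce and had 6.19, 6.38, 6.66, 8.49 and 11.1 CPM in CD16 against 13.8, 13.9, 19.4, 20.02 and 35.98 CPM in CD20. Here the groups did not overlap, yet the log2FC of 1.34 (SE 0.46) had an adjusted p of 0.109. Likewise the 21 nt form did not overlap between CD16 (176, 282, 285, 307 and 339 CPM) and CD20 (400, 406, 490, 612 and 678 CPM), with a log2FC of 0.81 (SE 0.32, adjusted p = 0.150). Canonical miR-26a had a log2FC of 0.22 between these groups and overlapped. In CD12 the 21 nt form had 433, 438, 446 and 496 CPM and was above every animal of CD16 as well (log2FC -0.64, SE 0.34, joint adjusted p = 0.217). The remaining member whose groups did not overlap within the cycle was the 22 nt form of miR-103, in CD16 vs CD12 (log2FC 0.45, joint adjusted p = 0.634). These are 2 of 14 members in CD20 vs CD16 and 2 in CD16 vs CD12, and of all 873 sequences 4.93% and 5.5% had groups that did not overlap.

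**Figure D4:**
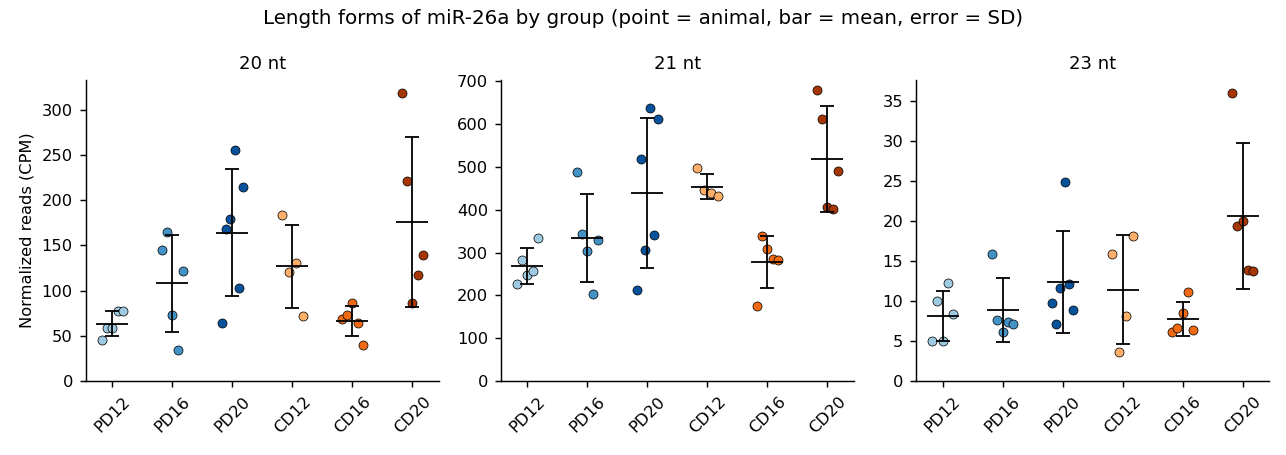
Normalized reads (CPM) of the 20, 21 and 23 nt forms of miR-26a by group, with points for animals, bars for means and error bars for SD. CD16 lies low in each panel and CD20 is high in mean and spread, and the 4 animals of CD12 lie close together for the 21 nt form.

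Between pregnant and cyclic animals no difference passed the test, and the smallest p belonged to short forms of miR-26a on D12. The 21 nt form had 225, 247, 256, 283 and 334 CPM in PD12, all below the lowest of CD12 (433 CPM), with a log2FC of -0.74 (SE 0.29, edgeR adjusted p = 0.677). It was the 1 member without overlap there, and 2.18% of all sequences had none. The 20 nt form overlapped and had a log2FC of -0.98 (SE 0.36, adjusted p = 0.677). Next on D12 by p was miR-103 extended by G, with 6.47 to 13.8 CPM in PD12 and 2.19 to 8.24 CPM in CD12 (log2FC 0.67, adjusted p = 0.739). On D16 the lowest adjusted p was 0.557, for the 21 nt form of miR-103 or miR-107 (log2FC 0.58, SE 0.33), and on D20 it was 0.240, for the 23 nt form of miR-26a (log2FC -0.72, SE 0.40). Canonical miR-26a had a log2FC of -0.18 on D12, 0.06 on D16 and -0.09 on D20. For canonical miR-103 the values were 0.09, 0.35 and 0.16.

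When the 6 groups were tested together for any difference, with no limit on the fold, 1 of 14 members was called, against 17% of all 873 sequences. This was the 20 nt form of miR-26a (edgeR adjusted p = 0.0230). The 23 nt and 21 nt forms followed, both with an adjusted p of 0.0594, and canonical miR-26a had 0.210. In the family of miR-103 and miR-107 the lowest adjusted p was 0.182, for the 22 nt form of miR-103. Leaving out CD20 replicate 1 or CD20 replicate 2, the animals with the highest levels of the 20 nt form in their group, raised its adjusted p to 0.0665 and 0.0524. The call was lost in these 2 fits, where 82 and 94 of all 873 sequences were called, against 148 with all libraries. Calls thus fell over all sequences and not for this form alone. With each of the remaining libraries left out in turn, the edgeR adjusted p of the 20 nt form was between 0.0163 and 0.0453. The call was also lost with the replicate number as a block (edgeR adjusted p = 0.0741) and in the fit of all deposited sequences (0.184), and over the 10 alternatives other than leaving out 1 library the adjusted p was between 0.00327 and 0.184.

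Whether the difference between pregnant and cyclic animals changed from day to day was tested by the interaction of status and day. No member was called, and of all sequences 0.115% were called for D20 vs D12, 2.41% for D20 vs D16 and 0% for D16 vs D12. At an unadjusted p under 0.05 there were 2 members for D16 vs D12, against 8.13% of all sequences. For D20 vs D12 and D20 vs D16 there were 0, against 16.4% and 19.1%. DESeq2 and the likelihood ratio test called no member. Of all sequences DESeq2 called 2.52% for D20 vs D12, 5.96% for D20 vs D16 and 0% for D16 vs D12. The likelihood ratio test called 1.83%, 5.38% and 0%, in the same order. The 20 nt form of miR-26a had the smallest p for D16 vs D12, a difference of 1.69 in log2FC (edgeR adjusted p = 0.384). It had a lower mean in pregnant than in cyclic animals on D12 and a higher mean in pregnant animals on D16.

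The composition of each miRNA by length differed between families. Canonical reads made up 86.5% ± 3.71 (SD, n = 30) of the 5 forms of miR-26a, the 21 nt form 9.99% ± 2.52 and the 20 nt form 3.05% ± 1.36, whereas the 23 nt form held 0.300% ± 0.139 and the 19 nt form 0.130% ± 0.0617. For miR-103 the canonical form made up 87.8% ± 1.66, the 22 nt form 5.62% ± 0.841 and the 24 nt form extended by A 5.30% ± 1.20. The form with 2 bases missing at the 5′ end held 0.644% ± 0.167 of miR-103 reads, and its level ran from 12.4 to 47.1 CPM. The 25 nt form of the second precursor and the 24 nt form extended by G made up 0.460% and 0.221%. Among the annotated forms, the most common length variant of miR-26a was thus shorter at the 3′ end, and miR-103 had a shorter and a longer one in like amounts. Forms with a tail of T, which are not among the 873 sequences, do not enter these shares. Of miR-103 there were 12242 deposited reads with a tail of T only, against 16313 reads of the 22 nt form. Reads with a tail of A only were 16661, which include the annotated 24 nt form extended by A (15327 reads) and the 25 nt form (1313).

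The ratio of a length form to its canonical sequence does not depend on scaling between libraries, and it was tested with limma over 468 pairs, of which 9 were members. No pair of the members was called in any comparison at an adjusted p under 0.05, where the share of all pairs called was 0.214% for PD16 vs PD12, 5.34% for PD20 vs PD12, 0.214% for PD20 vs PD16, 0% for CD16 vs CD12, 0% for CD20 vs CD12, 0.214% for CD20 vs CD16, 0% for PD12 vs CD12, 0% for PD16 vs CD16 and 0.214% for PD20 vs CD20. At an unadjusted p under 0.05 there were 2 of the 9 pairs (22.2%) in PD16 vs PD12, PD20 vs PD16, CD16 vs CD12 and PD12 vs CD12, where the shares of all pairs were 11.3%, 17.7%, 10.5% and 7.05%. There was 1 in CD20 vs CD16, against 15.8%, and 0 in the others, where between 12.6% and 21.2% of all pairs were under it. The smallest p was that of 21 nt to canonical miR-26a in CD16 vs CD12 (log2 difference -0.98, SE 0.29, adjusted p = 0.298). The 21 nt form held 13.8% ± 1.22 of miR-26a reads in CD12 and 7.90% ± 2.05 in CD16, compared with 10.01% ± 1.32 in PD12. In the same pair of groups the 20 nt form had mean shares of 3.88% ± 1.37 and 2.06% ± 0.966 (log2 difference -1.13, SE 0.51, adjusted p = 0.441). The A-extended form of miR-103 had a share of 5.97% ± 1.09 in PD12 and 4.12% ± 1.10 in PD16 (log2 difference -0.59, SE 0.22, adjusted p = 0.383).

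miR-107 was rare beside miR-103. Its reads were 0.400% ± 0.169 (SD, n = 30) of those of miR-103 at 23 nt and 11.03% ± 4.57 at 22 nt. In the reads as counted, the lengths were thus distributed differently. Reads of 22 nt were 1.93 ± 0.929 times the 23 nt reads for miR-107 and 0.0642 ± 0.0104 times for miR-103. The ratio of miR-107 was the higher in 30 of 30 libraries. It was 0.5 in PD20 replicate 3 and 0.667 in CD16 replicate 3, where 23 nt reads of miR-107 were the more numerous. In the others it lay between 1.07 (PD16 replicate 1) and 4.56 (CD12 replicate 2). Since G22C alone separates miR-107 from miR-103, reads with each base at position 22 were counted. Of 23 nt sequences otherwise identical to miR-103 there were 259177 reads with G, 998 with C, which is canonical miR-107, 160 with A and 83 with T. The changes from G to C at the 6 other G positions of miR-103 had between 7 and 45 reads each. At 22 nt, where the base is the last, there were 16313 reads with G, 1802 with C, 606 with A and 171 with T. Among 43 other sequences of the table that end in G and have at least 10000 reads, reads with C in its place had a median of 0.830% (quartiles 0.182% and 1.77%).

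A change of the last base set 2 libraries apart from the others. Reads of miR-26a that end in C in place of T (T22C) were between 14.3% and 32.6% of canonical reads in 28 libraries, but 0.240% in PD20 replicate 3 and 0.171% in CD16 replicate 3. The change was not particular to miR-26a: over 66 sequences of the table that end in T, its median was between 11.4% and 25.8% in the 28 libraries and 0.194% and 0.100% in these 2. In the same 2 libraries the 22 nt form of miR-107, which ends in C, was at 3.34% and 2.48% of the 22 nt form of miR-103, the lowest shares of all. At 23 nt, with the base inside the sequence, their values were 0.441% and 0.231%, within the range of the others. The part of the last-base change in the counts of 22 nt miR-107 was not tested. Without both libraries, the log2FC of PD20 vs PD16 was -0.63 for the 22 nt form and -0.96 for canonical miR-107, and that of CD20 vs CD16 was 1.44 for the 20 nt form of miR-26a, and the adjusted p of the 20 nt form for any difference among groups was 0.0401.

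Another change followed the number in the sample titles. Reads of miR-103 with C at base 20 (A20C) were 1.75% to 2.70% of canonical reads in the 8 libraries numbered 1 to 12, 0.185% to 0.477% in the 12 libraries numbered 13 to 24, and 3.44% to 4.56% in the 10 libraries numbered 25 to 36. These ranges did not overlap. For miR-26a the corresponding change (G20C) was at 1.31% to 2.12%, 0.330% to 0.687% and 1.96% to 2.44%, where the first range and the last overlap. The labels say that libraries were joined in 3 pools but not which. All 6 groups had libraries with numbers from 13 to 24 and from 25 to 36, and all but CD12 had some up to 12. With these ranges as a block, 0 members were called in the 9 comparisons, which called 0% to 1.37% of all sequences. The 20 nt form of miR-26a kept its call for any difference (edgeR adjusted p = 0.0283), where 15.5% of all sequences were called.

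**Figure D5:**
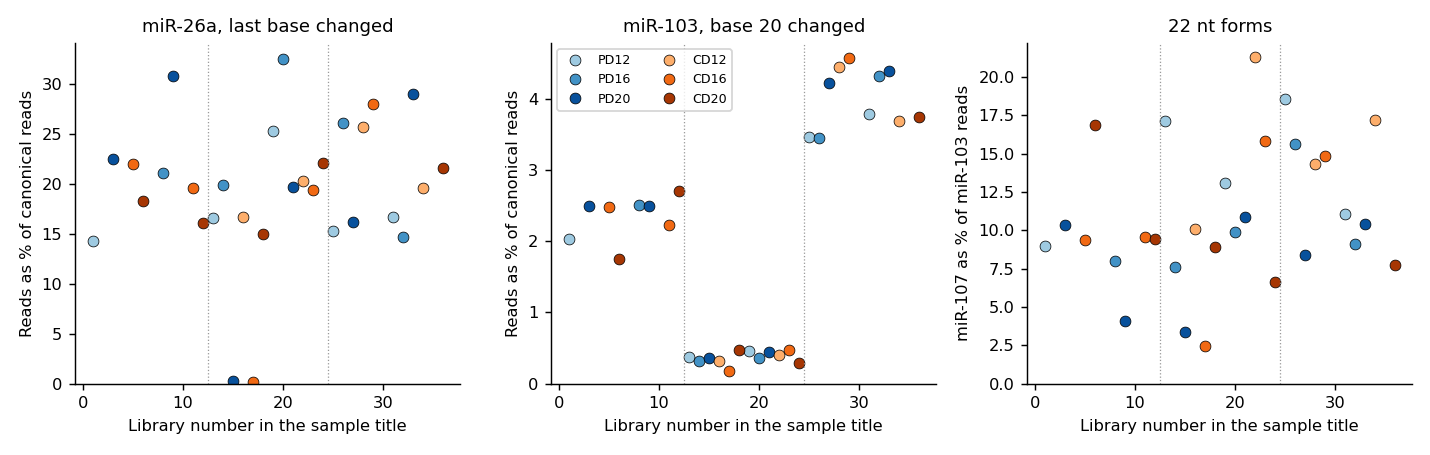
Changed bases by the library number in the sample title, with points for libraries coloured by group and dotted lines after numbers 12 and 24. The left panel (miR-26a, last base) shows 2 libraries near 0%, the middle panel (miR-103, base 20) shows 3 levels by number, and the right panel gives 22 nt miR-107 as a percentage of 22 nt miR-103, lowest in the same 2 libraries as in the left panel.

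The 3 sequences with an Ensembl gene identifier and the seed of miR-26a differ from it at C11T, and the 22 nt and 21 nt sequences also at C21T, counted from the 5′ end of miR-26a. The 22 nt sequence, the most abundant of them, is shown because these are the bases that miR-26b has in other mammals.
Ensembl gene identifier, 22 nt: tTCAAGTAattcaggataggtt
It had a mean of 283 CPM over the 30 libraries (rank 135) and the 21 nt sequence had 63.5 CPM. Canonical miR-26a with C11T alone had 131 reads, against 20703 for the sequence shown. Group means were highest in PD16 (384 ± 115 CPM) and CD20 (364 ± 85.3), followed by PD20 (308 ± 112), CD12 (226 ± 78.8), CD16 (208 ± 80.03) and PD12 (193 ± 56.3). The log2FC of PD16 vs PD12 was 1.03 (SE 0.32, joint adjusted p = 0.178, edgeR), and the adjusted p for any difference among groups was 0.0647.

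By the likeness of their profiles, the sequences outside the members nearest to canonical miR-26a over the 30 libraries were this 22 nt sequence (Pearson r = 0.65 of log2 CPM), a form of miR-151 (0.63), forms of miR-99a (0.62 and 0.55) and a form of miR-191 (0.54). Nearest to canonical miR-103 were forms of let-7g (0.67 and 0.66), a sequence of the precursor mir-125b-2 with the seed CAAGTCA (0.66), miR-200c (0.63) and miR-127 (0.63). For canonical miR-107 they were forms of miR-375 (0.58 and 0.56), mature miR-125b, whose seed is CCCTGAG (0.54), miR-30d (0.54) and miR-23b (0.51). They were the 5 highest of 536 candidates for each miRNA, all values share the same libraries and scaling, and no test was made. Between the canonical members r was 0.20 for miR-26a and miR-103, 0.20 for miR-26a and miR-107, and 0.37 for miR-103 and miR-107.

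The miR-15/16 family has a seed that overlaps that of miR-103 and miR-107 shifted by 1 base, and it is known to restrain the cell cycle. For any difference among groups 5 of its 14 annotated sequences were called (35.7%, against 17% of all), of which 4, named after their values were seen, were canonical miR-16 (edgeR adjusted p = 0.0133) and its 20, 21 and 23 nt forms of the pig precursors, and 1 was the 22 nt form of miR-195 (0.0135). In the 9 comparisons 0 were called with edgeR, with up to 10 at an unadjusted p under 0.05, in CD20 vs CD16, where 21.2% of all sequences were under it. Their median log2FC was 1.34 in CD20 vs CD16 and -1.03 in PD20 vs CD20, where the 14 members above had 0.14 and -0.06 and all sequences -0.03 and -0.03. Canonical miR-16 had a mean of 366 ± 411 CPM in CD20 and 79.4 ± 25.6 in CD16 (log2FC 2.13, SE 0.61, edgeR adjusted p = 0.0957). In CD20 the median was 130 CPM and the highest animal, replicate 1, had 1054 CPM. Without it the mean was 194 CPM and the log2FC 1.26 (edgeR adjusted p = 0.265), while without CD20 replicate 3 or CD20 replicate 4 miR-16 was called (edgeR adjusted p = 0.0380 and 0.0415). The fits of CD20 vs CD16 that left out 1 library called 0 to 36 of all sequences, against 4 with all libraries. The 36 came without CD20 replicate 3. Canonical miR-195 had a log2FC of -1.68 in PD20 vs CD20 (SE 0.46, edgeR adjusted p = 0.0581), which was -1.10 without CD20 replicate 1 (adjusted p = 0.166). It was called without CD20 replicate 4, CD20 replicate 5 or PD20 replicate 4 (edgeR adjusted p = 0.0267, 0.0465 and 0.0344). In the same comparison canonical miR-16 had a log2FC of -1.87 (SE 0.57, edgeR adjusted p = 0.0630), which was -0.92 without CD20 replicate 1 (0.247), and it was called without the same 3 libraries in turn (0.0340, 0.0465 and 0.0344). The fits of PD20 vs CD20 that left out 1 library called 5 to 116 of all sequences, against 13 with all libraries. Canonical miR-497 had a mean of 9.67 CPM and canonical miR-15b one of 7.504 CPM over all libraries.

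The tissue carried markers of endometrium and of other cells. Epithelial miRNAs (45 sequences of miR-200a, miR-200b, miR-200c, miR-141, miR-429, miR-205 and miR-203) summed to between 5044 and 17424 CPM, with miR-200c the most abundant. Their mean was lowest in CD20 (8365 ± 2219 CPM) and highest in CD16 (13296 ± 3509), and was 11725 ± 3182 CPM in PD20. Smooth muscle and stromal miR-143 and miR-145 (31 sequences) summed to between 63798 and 209206 CPM in 29 libraries and to 636004 CPM in PD20 replicate 1, which also had the highest sum of striated muscle miRNAs (40166 CPM), mostly miR-1. Without this library 0 members were called in PD20 vs PD12, PD20 vs PD16 and PD20 vs CD20. Over the fits that left out 1 library each, these comparisons called 2 to 21, 1 to 9 and 5 to 116 sequences in all. Without PD20 replicate 1 the log2FC of the 20 nt form of miR-26a in PD20 vs PD12 was 1.56 (joint edgeR adjusted p = 0.0716). For any difference among groups the 20 nt and 21 nt forms were then called (edgeR adjusted p = 0.0193 and 0.0431), which is 14.3% of the members against 14.4% of all sequences. Endothelial miR-126 (17 sequences) had its highest means in CD20 (4604 ± 293 CPM) and PD20 (3913 ± 606) and its lowest in CD12 (2602 ± 778).

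Leukocyte miRNAs (7 sequences of miR-142 and miR-150, with none named miR-223) were scarce and had means of 102 ± 44.1 CPM in CD20, 101 ± 30.9 in PD20, 73.4 ± 38.3 in PD16, 50.7 ± 9.18 in PD12, 48.9 ± 20.0 in CD12 and 44.0 ± 18.2 in CD16, the most abundant being a form of miR-142 at 18.4 CPM. CD20 replicate 1 had the highest sum of leukocyte miRNAs (175 CPM), the lowest of epithelial miRNAs (5044 CPM) and the highest level of the 20 nt form of miR-26a. Erythrocyte miRNAs (16 sequences, mostly miR-451) had means between 972 ± 427 CPM in CD12 and 2190.05 ± 1177 in PD20. The lists were matched by name, and 17 of the 873 sequences carry an Ensembl gene identifier and no miRNA name. No sequence was named miR-133a or miR-133b, nor miR-302, miR-371, miR-372 or miR-373, which mark early embryonic cells. However, 1 of the 17 is the sequence of the miR-302 assay that the study used. It had 7, 4, 11, 117, 48 and 121 reads in PD20 replicates 1 to 6 (between 2.37 and 41.2 CPM), 2 and 1 reads in CD20 replicates 1 and 5, and 0 reads in the other 22 libraries. It was called higher in PD20 vs PD12, PD20 vs PD16 and PD20 vs CD20 (edgeR adjusted p = 0.00929, 0.0314 and 0.00775). PD20 replicates 4 and 6 had the most reads of it and the highest levels in PD20 of 20 nt miR-26a (255 and 214 CPM). The other animals did not keep this order. PD20 replicates 2 and 3, with 4 and 11 reads of it, had 168 and 179 CPM of the 20 nt form. PD20 replicate 5, with 48 reads of it, had less of the 20 nt form than these. CD20 replicate 1, with the highest level of the 20 nt form in all libraries (319 CPM), had 2 reads of it. Among the sequences matched to the marker lists by name, 4 calls were made in the 9 comparisons, and they are named after their values were seen. Lower in PD20 vs CD20 were 3 of the 45 epithelial sequences (6.67%, against 0.802% of all sequences), and all 3 were scarce forms of miR-205, with means between 4.66 and 18.9 CPM over the 30 libraries, while the sum of the epithelial list had the higher mean in PD20. Higher in PD20 vs PD16 was 1 of the 31 sequences of smooth muscle and stroma (3.23%, against 0.573%), an 18 nt form of miR-143. The part of these cells in the levels of miR-26a, miR-103 and miR-107 was not tested.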

How the data were processed

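The authors deposited raw read counts per distinct sequence for each library, after filters on base quality and on a length of at least 17 nt. Names and sequences of the 873 annotated sequences came from the study's supplement, and counts were joined by exact match. The members and lists were chosen with earlier results of these data known.

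Library sizes were TMM-scaled, and edgeR 4.0.16 (R 4.3.3) was used with the quasi-likelihood F-test, D16 and D20 jointly against D12 within pregnancy and within the cycle, and single contrasts otherwise. SE is the log2FC divided by the square root of its F. P vs C was fitted per day, and any difference among groups and the interactions in 1 fit of all 30 libraries. Length forms were placed on canonical sequences by an overlap of at least 12 bases and tested with limma 3.58.1 on log2 ratios with a pseudocount of 0.5. Alternatives included DESeq2 1.42.0. The fits were tested on simulated data. Likeness used a pseudocount of 1 and a mean of at least 10 CPM, and the 5 nearest sequences were named. Values by library are given for at most the 3 members with the smallest p in a comparison. Host genes are from RefSeq (Sscrofa11.1), and no coordinates are given because the build of the files differs. Replicate numbers did not pair animals. Within groups, all 61 pairs of libraries differed beyond sampling noise (chi-square per degree of freedom at least 70.5). No molecular identifiers were counted, so reads may be copies of the same molecule.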

Additional observations from a re-analysis of the deposited data

Results flagged for a closer look

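In 4 of 84 sets of values (14 members in 6 groups) 1 animal lay far from the others of its group, and chance flags about 1 in 20 sets. The 25 nt form of miR-103 had 27.3 CPM in PD12 replicate 5, against 16.6 CPM in the next animal. The 23 nt form of miR-26a had 15.9 CPM in PD16 replicate 1 (next 7.66), 24.8 CPM in PD20 replicate 4 (next 12.1) and 35.98 CPM in CD20 replicate 1 (next 20.02). CD20 replicate 1 and PD20 replicate 4 also had the highest levels of the 20 nt and 21 nt forms in their groups.

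Reads of the families outside the 873 annotated sequences did not enter the comparisons of these sequences. There were 50578 reads of miR-26a with T22C, 20169 reads of canonical miR-26a followed by a tail of T only, and 12242 such reads of miR-103. Tails of T were 7.14% of the reads that begin with canonical miR-26a (5.47% to 9.78% in a library) and 4.19% for miR-103 (2.72% to 5.50%). Group means of the T-tailed share of miR-26a ran from 7.06% ± 0.862 (CD12) to 7.85% ± 1.13 (PD12), and those of miR-103 from 3.28% ± 0.464 (CD20) to 4.62% ± 0.730 (PD16). In the edgeR fits of all deposited sequences, miR-26a and miR-103 with 1 added T had no adjusted p under 0.537 and 0.745 in the 9 comparisons.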

How the results depend on the processing

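Counts of called members were recomputed under each alternative. In CD20 vs CD16, where 0 were called, the likelihood ratio test called 1, DESeq2 2 and the fit of all 30 libraries 2. Leaving out 1 library gave 0 to 1. The calls were the 20 nt form of miR-26a and, with DESeq2 and the fit of all libraries, also its 23 nt form. The likelihood ratio test, DESeq2 and the fit of all libraries called 56, 75 and 64 sequences in all (6.41%, 8.59% and 7.33%), against 4. The call with 1 library left out came without CD20 replicate 3, where 36 of 873 sequences were called. In the other comparisons of days and of status the likelihood ratio test called 1 to 124 sequences in all and DESeq2 0 to 131, where the main test called 0 to 13. For any difference among groups, where 1 was called, the likelihood ratio test and DESeq2 called 3 (21.4% of 14, against 30.1% and 31.2% of all sequences), the filter at 10 CPM 2 of 12 (16.7%, against 18.6%), the fit of all deposited sequences 0 (against 1.37%) and isomiRs summed by miRNA 0 (against 19.1%), and leaving out 1 library gave 0 to 3 (3 without PD16 replicate 1, 21.4% against 21% of all). With the replicate number as a block 0 were called for any difference, where the adjusted p of the 20 nt form was 0.0741, and in the same fit 54 sequences were called in all, against 148. The block left the counts of the other comparisons at 0. The replicate numbers did not pair animals (correlations of deviations between -0.697 and 0.709), and no pairing is read from this. Of the 27 log2FC values recomputed, those of the 3 members with the smallest p in each of the 9 comparisons, 1 changed sign, that of the 21 nt form of miR-103 or miR-107 in PD16 vs PD12, -0.03 and 0.0092 with the block. No alternative called a length ratio of the members. Of all pairs, the alternatives called 0 to 32 in a comparison, the highest in PD20 vs CD20 with the fit of all 30 libraries (of 468 pairs). Leaving out 1 library gave 0 to 34 pairs in all, the highest in PD20 vs PD12. miR-107 as a percentage of miR-103, 0.400% at 23 nt, was 11.03% at 22 nt and 1.04% over both. Counting reads with a last T or C together, and leaving out PD20 replicate 3 and CD16 replicate 3, both chosen after seeing the data, changed no count of called members.

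The depth limits the scarce forms. The 19 nt form of miR-26a had 391 reads over 30 libraries and canonical miR-107 had 998, so that their group means rest on few reads per animal. The 9 comparisons had 4 to 6 animals per group.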
